A study of Mus musculus with 12 samples.

Results

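Glucose enters cells through 2 unrelated families of membrane transporters, and 9 of their genes are described here, out of 56748 genes in the table. The 9 were chosen by gene symbol, and Slc5a2 was selected on its measured enrichment in the rod pulldown of these libraries, so its difference between rods and retina is given as a description with no test. Facilitative transporters of the SLC2 family (the GLUT proteins) let sugars move down their gradient. The members from this family were Slc2a1, Slc2a3, Slc2a4, Slc2a8, Slc2a10 and Slc2a13. Cotransporters of the SLC5 family use the sodium gradient to carry sugars or related solutes, and the members were Slc5a1, Slc5a2 and Slc5a3. Of these 9, Slc2a13 and Slc5a3 carry mainly myo-inositol, a sugar alcohol used for phosphoinositides and as an osmolyte. Rods have no blood vessels of their own and take up glucose that has crossed the pigment epithelium, chiefly through the transporter encoded by Slc2a1.

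The libraries came from mice homozygous for Ribo-Tag, an allele in which Cre attaches an HA tag to a ribosomal protein, and positive for i75-Rod-Cre, a Cre driven by the rhodopsin promoter. Control mice (Pkm2_Rodhet) carried 1 floxed Pkm2 allele and knockout mice (Pkm2_Rodko) had both alleles floxed, so every group carried Cre and at least 1 floxed allele. Each genotype was measured in polyribosomal mRNA pulled down through the tag (Rod-TRAP, called rods here) and in total retinal RNA taken before the pulldown (called retina here), after perfusion with cycloheximide, with 3 libraries in each of 4 groups. The deposited description gives an age of 2 weeks and the methods give 2 months. The labels do not tie libraries to single animals, so p-values measure the spread between these libraries.

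Library totals ranged from 13458890 to 22790074 reads. Pkm, the targeted gene, was lower in all 3 knockout libraries than in all 3 control libraries in rods (log2 difference -1.20, limma adjusted p = 5.36e-05) and in retina (-0.65, adjusted p = 0.0219), and the table does not separate its isoforms. All 10 rod markers were higher in rods than in retina in control mice (median log2 difference 1.94). Markers of other cells were lower in rods but not absent. The summed level of 8 Müller glia markers was 611 to 769 CPM in control rods and 4298 to 4966 in control retina. CPM here are counts scaled to a common library size by TMM, the trimmed mean of M values. Between genotypes in these bulk samples, fewer cells of a type and less RNA per cell cannot be told apart. Rods and retina also differ as polyribosomal against total RNA, which cannot be told apart from the cell type.

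To set the genes side by side, reads were scaled to a common library size over all 12 libraries by TMM (trimmed mean of M values) and divided by exon length, giving values in RPKM (reads per kilobase of exon at a common library size). On this scale Slc2a1 was the highest of the 9 in every group. Its level was 81.9 ± 6.35 (SD, n = 3) in control rods, 86.1 ± 10.7 in knockout rods, 49.9 ± 6.28 in control retina and 49.9 ± 1.88 in knockout retina. In control rods it was followed by Slc2a8 at 2.19 ± 0.60 and Slc2a3 at 2.08 ± 0.47, whose ranges over libraries overlapped. Then came Slc5a3 at 0.559 ± 0.163, Slc2a13 at 0.444 ± 0.094, Slc5a2 at 0.362 ± 0.083 and Slc2a4 at 0.217 ± 0.138, each overlapping the next. Slc5a1 (0.0362 ± 0.033) and Slc2a10 (0.0323 ± 0.037) were lowest and overlapped each other.

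The order in control retina was different. Slc2a1 was followed by Slc2a3 at 11.6 ± 0.35, Slc2a13 at 3.89 ± 0.26, Slc2a8 at 2.93 ± 0.23 and Slc5a3 at 1.85 ± 0.42, with no overlap between neighbours. Slc2a4 (0.279 ± 0.138), Slc2a10 (0.215 ± 0.119) and Slc5a1 (0.206 ± 0.123) overlapped, and Slc5a2 was last at 0.0637 ± 0.022, below every library of Slc5a1. Slc5a2 was 6th of 9 in rods and 9th in retina. It was selected for its rod enrichment, so this shift restates that choice. In knockout mice the genes kept the same order in both fractions, although more neighbours stood apart in rods, and in retina Slc2a13 overlapped Slc2a8 and Slc5a1 overlapped Slc5a2.

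Expressed as a share of the summed per-kilobase level of the 9 genes, Slc2a1 made up 93.2% ± 0.60 in control rods and 70.2% ± 2.33 in control retina. Slc2a3 made up 2.35% ± 0.36 and 16.4% ± 1.69, and Slc2a13 0.507% ± 0.112 and 5.52% ± 0.73. The 3 SLC5 genes together held 1.10% ± 0.22 in control rods and 2.99% ± 0.21 in control retina. In knockout mice the share of Slc2a1 was 94.0% ± 0.64 in rods and 72.3% ± 2.28 in retina, overlapping the control libraries in each fraction.

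**Figure D1:**
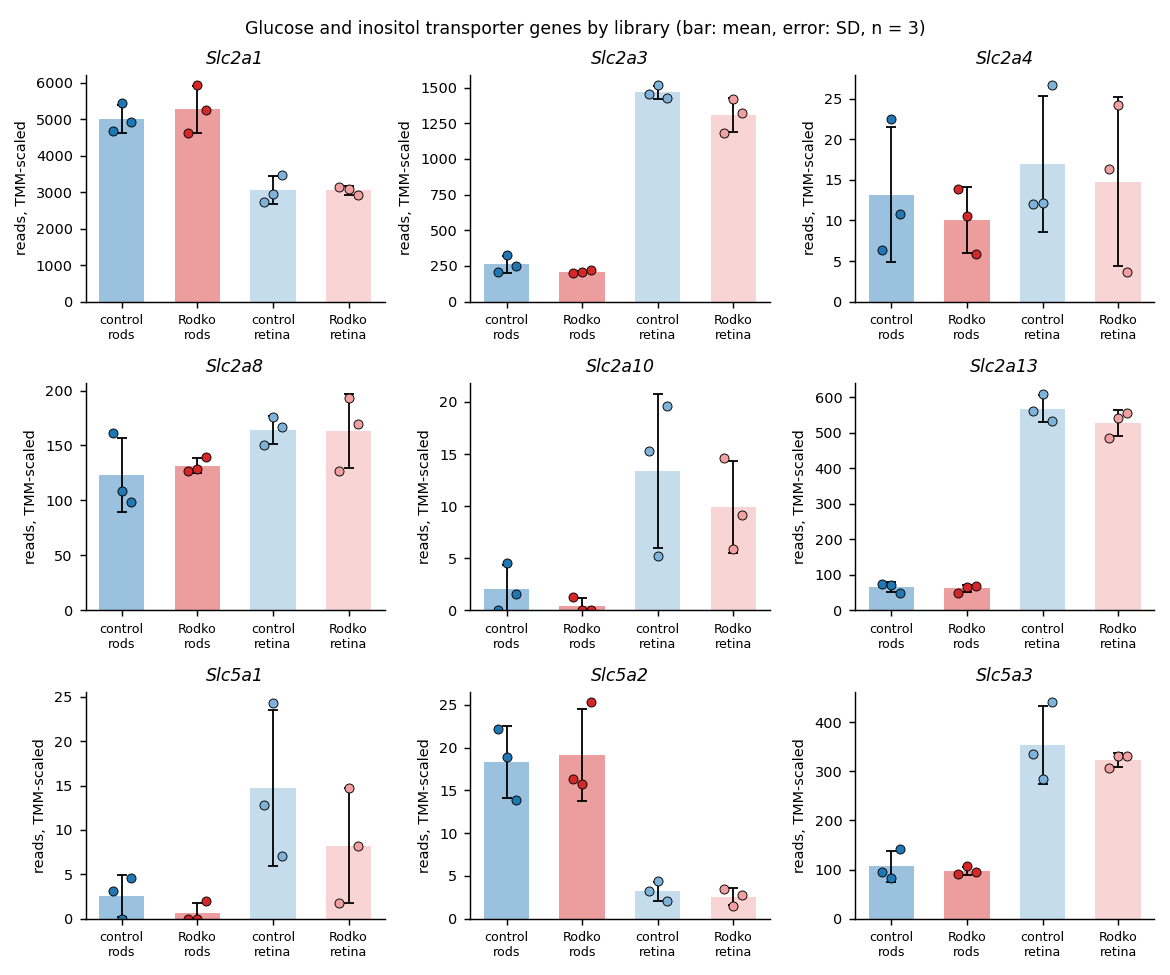
Reads per library, scaled by TMM over 12 libraries, for the 9 genes in control rods, Rodko rods, control retina and Rodko retina (points: libraries, bars: mean, error bars: SD, n = 3). Slc2a1 and Slc5a2 are higher in every rod library than in every retina library, and Slc2a3, Slc2a13 and Slc5a3 are lower in every rod library. Slc5a2 was chosen for this contrast.

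The first comparison was between rods and retina, which asks which transporter mRNAs are on rod ribosomes relative to the whole tissue. Of the 8 members tested, 1 was higher in rods (Slc2a1) and 5 were lower (Slc2a3, Slc2a10, Slc2a13, Slc5a1 and Slc5a3) in control mice. Over all 25458 genes tested, 23.6% were called higher in rods and 35.7% lower. The same 6 members were called in the same directions in knockout mice, where 24% of all genes were higher and 35.3% lower. The median log2 difference over the 9 members, Slc5a2 included, was -1.74 in control and -1.72 in knockout mice, and over all genes it was -0.36 and -0.31. These differences were read on the log2(TMM-scaled reads + 1) scale, which understates changes of genes with few reads. The fit did not pair rod and retina libraries by replicate number. With that pairing Slc2a8 was also called lower in control mice.

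Slc2a1 encodes GLUT1, the main glucose transporter of photoreceptors, pigment epithelium and the blood-retina barrier. The TMM-scaled reads were 4678, 5437 and 4918 in control rods and 2729, 2961 and 3479 in control retina. The lowest rod value exceeded the highest retina value. Slc2a1 was higher in rods by 0.72 on the log2 scale (SE 0.101, adjusted p = 1.69e-05), or 1.64-fold. Knockout rods gave 4626, 5933 and 5252 reads and knockout retina 3132, 3103 and 2920, and the log2 difference was 0.78 (adjusted p = 6.31e-06). Slc2a1 stood above 85.6% of all tested genes in control mice in this comparison.

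The size of this difference rested on how the fractions were put on a common scale. With libraries scaled by total reads the log2 difference of Slc2a1 was 0.17 (adjusted p = 0.191) in control and 0.20 (adjusted p = 0.126) in knockout mice, and with the deposited values, which were scaled within each fraction, 0.12 (adjusted p = 0.324) and 0.18 (adjusted p = 0.155). The calls were lost under both. The median of all genes moved as well, from -0.36 to -0.76 with total reads and -0.80 with deposited values in control mice. Relative to that median, Slc2a1 was higher by 1.08 with TMM, 0.93 with total reads and 0.92 with the deposited values. The division of all called genes changed from 6004 higher and 9090 lower with TMM to 2186 and 12701 with total reads, and 1942 and 13144 with deposited values.

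Slc2a3 encodes GLUT3, a high-affinity transporter of many neurons. Its TMM-scaled reads were 209, 327 and 252 in control rods and 1452, 1515 and 1430 in control retina. Each rod library was far below each retina library, with a log2 difference of -2.50 (SE 0.130, adjusted p = 3.27e-10) in control mice and -2.64 (adjusted p = 1.36e-10) in knockout mice. In control mice 14.3% of tested genes had a lower value. For comparison, the median log2 difference in control mice was -3.10 for 8 bipolar cell markers, -2.93 for 8 Müller glia markers and -2.85 for 8 amacrine cell markers. Markers of those cells kept some reads in the pulldown, and their part in the rod reads of Slc2a3 was not tested.

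Slc2a13 encodes the proton-coupled myo-inositol transporter, which is found mostly in brain. Its TMM-scaled reads were 74.4, 71.1 and 49.2 in control rods and 562, 610 and 533 in control retina. Knockout rods gave 49.1, 65.7 and 69.1 reads and knockout retina 487, 541 and 556. Rod and retina libraries were widely apart in each genotype, with a log2 difference of -3.13 (SE 0.169, adjusted p = 4.68e-10) in control mice and -3.10 (adjusted p = 3.77e-10) in knockout mice. Of all tested genes, 5.88% had a lower value in control mice.

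Slc5a3 encodes the sodium-coupled myo-inositol transporter, which cells induce under osmotic stress. Its TMM-scaled reads were 94.98, 82.8 and 141 in control rods and 334, 284 and 440 in control retina, without overlap. Rods and retina differed by -1.74 on the log2 scale (SE 0.190, adjusted p = 1.09e-06) in control mice and -1.72 (adjusted p = 1.05e-06) in knockout mice. Slc5a3 shares its promoter and 159 exon bases (1.46% of its exons, GENCODE vM21) with Mrps6, a gene of the mitochondrial ribosome on the same strand. Mrps6 had 129, 232 and 144 reads in control rods and 210, 191 and 328 in control retina, and its log2 difference was 0.18 (adjusted p = 0.388). Slc5a3 reads were 50.02% ± 12.5 of Mrps6 reads in control rods and 187% ± 14.0 in control retina, so the pair that starts together differed in its ratio between fractions, with no overlap of the libraries.

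The annotated starts of Slc5a3 and Mrps6 lie 14 bases apart on chromosome 16. The 250 bases before the Slc5a3 start (RefSeq, GRCm38.p6, chr16:92058072-92058321, plus strand) are printed because both transcripts begin downstream of them. They hold 74.8% G and C, and all letters are in lower case because neither motif searched for occurs in them:
Slc5a3: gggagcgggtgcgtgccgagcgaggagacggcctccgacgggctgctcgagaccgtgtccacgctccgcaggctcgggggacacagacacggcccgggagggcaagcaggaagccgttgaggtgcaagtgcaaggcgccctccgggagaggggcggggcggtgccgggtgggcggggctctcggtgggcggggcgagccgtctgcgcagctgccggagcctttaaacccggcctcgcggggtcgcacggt

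RefSeq promoters matched 6 of the 9 members (Slc2a1, Slc2a8, Slc2a10, Slc2a13, Slc5a1 and Slc5a3), and Slc2a3, Slc2a4 and Slc5a2 had no entry. The windows were searched on both strands for TAATCC, the core bound by the photoreceptor factor CRX, and for ACGTG, the core of the hypoxia response element. TAATCC occurred in 0 of the 6 and in 6.25% of all 32817 windows of 250 bases. ACGTG occurred in Slc2a1, which was called higher in rods with TMM, in Slc5a1, which was called lower, and in 16.6% of all windows. The sequences of Slc2a1, the member called higher in rods, and of Slc2a13, a member called lower, are set against each other with ACGTG in capitals, at 36 bases before the start in Slc2a1 (chr4:119108495-119108744, plus strand) and absent in Slc2a13 (chr15:91573262-91573511, minus strand):
Slc2a1: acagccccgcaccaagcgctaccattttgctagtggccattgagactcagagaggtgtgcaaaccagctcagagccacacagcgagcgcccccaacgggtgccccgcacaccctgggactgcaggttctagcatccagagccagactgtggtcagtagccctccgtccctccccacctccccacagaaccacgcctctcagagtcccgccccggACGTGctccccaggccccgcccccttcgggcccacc
Slc2a13: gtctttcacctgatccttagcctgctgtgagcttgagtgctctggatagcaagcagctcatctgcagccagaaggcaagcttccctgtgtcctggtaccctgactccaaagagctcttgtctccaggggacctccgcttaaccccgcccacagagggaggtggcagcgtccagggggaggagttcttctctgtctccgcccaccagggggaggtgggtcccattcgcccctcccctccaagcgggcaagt

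Slc2a8 and Slc2a4 encode GLUT8, which resides on inner membranes, and GLUT4, the insulin-responsive transporter of muscle and fat. Slc2a8 gave 161, 109 and 98.4 TMM-scaled reads in control rods and 150, 176 and 167 in control retina, and control rod replicate 1 lay within the retina range. The log2 difference was -0.45 (SE 0.192, adjusted p = 0.0566), close to the median of all genes. With the replicate number as a block, which pairs each rod library with the retina library of the same number, the adjusted p was 0.0392. Without control rods replicate 1 it was 0.00839 at a log2 difference of -0.65, with a minimum of 10 reads in every library 0.048, and with RLE scaling 0.0314. With total reads the difference was -0.99 (adjusted p = 0.000382) and with deposited values -1.04 (adjusted p = 0.00024). In knockout mice it was -0.29 (adjusted p = 0.211) with TMM and was called lower with total reads (-0.87, adjusted p = 0.00118) and deposited values (-0.89, adjusted p = 0.000944). Slc2a4 had 4, 25 and 7 reads in control rods and 15, 14 and 38 in control retina, and its log2 difference of -0.41 (SE 0.618, adjusted p = 0.585) was smaller than the spread between libraries.

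Slc2a10 and Slc5a1 were at the limit of detection in rods. Slc2a10, which encodes GLUT10, a transporter of inner membranes, had 0, 5 and 1 reads in control rods and 19, 6 and 28 in control retina, and 1, 0 and 0 in knockout rods against 17, 8 and 10 in knockout retina. The log2 difference was -2.41 (adjusted p = 0.00536) in control mice and -2.97 (adjusted p = 0.00111) in knockout mice, and no rod library reached a retina library. Knockout rods had 1 read against 35 in knockout retina. Divided by the summed TMM library sizes, these gave a ratio of 0.0399, with an exact 95% interval for counting error of 0.000983 to 0.238. The lowest retina count of each genotype was in replicate 2. The summed level of 9 pigment epithelium markers was also lowest in control retina replicate 2 (102 CPM, against 421 and 739) but in knockout retina it was lowest in replicate 3 (180, against 446 and 539), and its part in Slc2a10 was not tested.

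Slc5a1 encodes SGLT1, the high-affinity sodium-glucose cotransporter of the intestine. Its counts were 2, 0 and 3 reads in control rods and 16, 28 and 10 in control retina, and 0, 0 and 2 in knockout rods against 2, 20 and 9 in knockout retina. The TMM-scaled levels of the knockout fractions overlapped. Rods and retina differed by -2.30 on the log2 scale (adjusted p = 0.0176) in control and -2.36 (adjusted p = 0.0154) in knockout mice. The control call was lost with a pseudocount of 0.1 (adjusted p = 0.0654), without control retina replicate 2 (0.0786) or without control rods replicate 2 (0.093). The knockout call was lost without knockout retina replicate 2 (adjusted p = 0.0849) or 3 (0.0522) and without knockout rods replicate 1 (0.0543) or 2 (0.056).

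Slc5a2 encodes SGLT2, the cotransporter that recovers most glucose in the kidney tubule and the target of the gliflozin drugs. It was the member chosen for its rod enrichment, so the values that follow describe that choice. The reads were 14, 21 and 9 in control rods, 13, 12 and 26 in knockout rods, 4, 5 and 3 in control retina, and 4, 2 and 3 in knockout retina. After TMM scaling these were 22.2, 18.9 and 13.8 in control rods and 3.21, 4.35 and 2.10 in control retina, and every rod library was above every retina library. The log2 difference was 2.20 in control and 2.51 in knockout mice. With summed reads divided by the summed TMM library sizes, the ratio was 5.85 (44 against 12 reads) and 7.92 (51 against 9 reads). With total reads the log2 difference was 1.73 and 2.03, and with deposited values 1.69 and 2.02. For scale, the 10 rod markers had log2 differences between 0.92 and 2.11 in control mice. Slc5a2 was selected for a high value of this difference and has few reads, so it cannot be ranked against them.

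Slc5a2 remained a rare transcript in rods at 0.362 ± 0.083 RPKM, against 81.9 ± 6.35 for Slc2a1. It overlaps Rusf1 on the opposite strand, with 597 shared exon bases, or 20.6% of the exon bases of Slc5a2 (GENCODE vM21, where Rusf1 is listed as BC017158). Whether counting used strand is not given in the sources used here, and reads of an overlap counted without strand could not be told apart. Rusf1 had 312, 560 and 374 reads in control rods and 421, 444 and 530 in control retina. Its log2 difference between rods and retina was 0.52 (adjusted p = 0.00063) in control mice and 0.55 (adjusted p = 0.000364) in knockout mice with TMM. On the deposited values Rusf1 was slightly lower in rods, at means of 423 against 446 in control and 478 against 494 in knockout mice, so its direction turned with the scaling. Slc5a2 reads were 3.55% ± 1.06 of Rusf1 reads in control rods and 0.881% ± 0.286 in control retina, and 3.26% ± 0.84 and 0.646% ± 0.266 in knockout mice. This ratio holds the contrast on which Slc5a2 was selected, and the part of the overlap in its reads was not tested. Tgfb1i1, the other gene within 10 kb, lies 9958 bases away on the same strand and had 5 reads in each control rod library and 106, 76 and 238 in control retina.

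**Figure D2:**
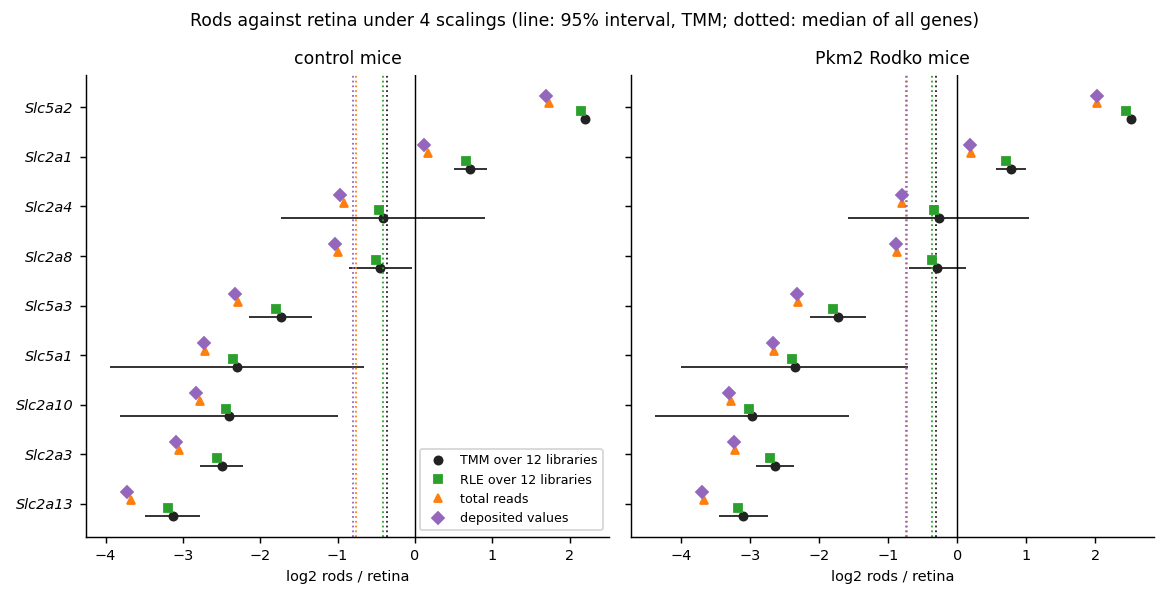
Log2 ratio of rods to retina for the 9 genes in control mice (left) and Pkm2 Rodko mice (right) under 4 scalings (symbols), with the 95% interval of the TMM fit as a line except for Slc5a2, which was chosen for this value. Dotted lines mark the median of all genes, and Slc2a1 moves from 0.72 with TMM to 0.12 with deposited values in control mice while it stays right of each median.

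Genes with the most similar profiles were named by the root mean square distance between centred log2 TMM-scaled profiles over the 12 libraries, among 16543 genes with a mean of at least 10 reads. For Slc2a1 they were Gpatch1 (0.082), Xrcc1 (0.0863), Cwc25 (0.0963), Tmem41b (0.101) and 2410004B18Rik (0.101), and the median distance of all genes was 0.471. For Slc5a2 they were Hmgb2 (0.312), Kpna2 (0.321), Pdc (0.323), Gm10259 (0.328) and Gm10184 (0.334), against a median of 1.23. These distances hold the step between rods and retina for which Slc5a2 was chosen, and its 5 nearest genes had log2 differences between 2.00 and 2.11, so the names restate that choice. The rod libraries of Slc5a2 spread from 13.8 to 25.3 TMM-scaled reads.

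Of 6 other genes of the SLC2 family, 5 were tested in control mice, 0 were called higher and 4 lower, where 23.6% and 35.7% of all genes were. Slc2a5 and Slc2a9, which are 2 of the 4, passed the filter on low values through retina alone, so no other direction was possible for them. Slc2a6, a transporter of lysosomal membranes, had 2, 0 and 5 reads in control rods and 82, 70 and 86 in control retina (log2 difference -4.26, adjusted p = 1.05e-05). Slc2a9, a urate transporter, had 0 reads in all control rod libraries and 15, 8 and 17 in control retina. Slc2a5, the fructose transporter, had 0, 0 and 1 against 8, 11 and 4 reads. Slc2a12 was detected more often, with 25, 6 and 7 reads in control rods and 90, 38 and 105 in control retina (-1.98, adjusted p = 0.004). Slc2a2, the transporter of liver and pancreatic beta cells, had 1, 0 and 0 against 5, 1 and 1 reads and was not called.

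Of 11 other genes, which were SLC5 genes and the SWEET sugar transporter Slc50a1, 8 were tested, 0 were higher and 5 lower in control rods, at the same background of 23.6% and 35.7%. Slc5a9 and Slc5a10, which are 2 of the 5, had 0 reads in all control rod libraries and passed the filter through retina alone. The lowest were Slc5a8, a monocarboxylate transporter (-3.96, adjusted p = 5.07e-09), Slc5a7, the choline transporter of cholinergic neurons (-3.47, adjusted p = 6.69e-08), and Slc5a5, the iodide transporter (-1.81, adjusted p = 0.00029). The values nearest 0 were those of Slc50a1 (-0.15, adjusted p = 0.499), Slc5a6, a vitamin transporter (-0.20, adjusted p = 0.12), and Slc5a4b, which had reads in 1 of 3 control retina libraries.

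Of 14 listed genes that act on glucose transporters, 13 were tested in control mice, and 5 were higher and 5 lower in rods, where 23.6% and 35.7% of all genes were. The highest were Nxnl1, the gene of the rod-derived cone viability factor (1.85, adjusted p = 4.37e-11), its paralogue Nxnl2 (1.77, adjusted p = 1.14e-09) and Hif1a, the hypoxia-inducible factor (1.11, adjusted p = 4.33e-07). Bsg, which encodes basigin, a partner of monocarboxylate transporters and the cone receptor for the Nxnl1 product, had 20686, 17359 and 22242 TMM-scaled reads in control rods and 10130, 9012 and 11074 in control retina (0.99, adjusted p = 2.15e-06). These calls were made with TMM scaling and were not repeated with the other scalings. The lowest were Tbc1d4 (-2.91, adjusted p = 8.35e-07) and Tbc1d1 (-2.46, adjusted p = 1.18e-06), which restrain the movement of GLUT4 vesicles, and Txnip (-2.38, adjusted p = 1.17e-05), which promotes the removal of GLUT1 from the membrane. Txnip had 11, 31 and 27 reads in control rods and 149, 141 and 302 in control retina. Pdzk1ip1, whose product binds SGLT2 in kidney, had 0 reads in all 6 rod libraries and 4, 0 and 4 in control retina, and it is 1 of the 5 lower calls although it passed the filter through control retina alone.

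Of 8 listed genes of inositol and osmolyte handling, 7 were tested in control mice, and 3 were higher and 3 lower in rods, at the background of 23.6% and 35.7%. Isyna1, which makes inositol phosphate from glucose 6-phosphate, had 718, 701 and 787 reads in control rods and 370, 224 and 561 in control retina (1.75, adjusted p = 4.77e-05). Slc6a6, the taurine transporter (1.23, adjusted p = 1.56e-08), and Impa1, which releases free inositol (0.997, adjusted p = 1.2e-08), were also higher. As for the other lists, these calls were made with TMM scaling and were not repeated with the other scalings. On the deposited values the means in control rods and control retina were closer for Impa1 (1581 and 1199) and Slc6a6 (48424 and 31286). For Isyna1 they were 800 and 360. The inositol carriers Slc2a13 and Slc5a3 were lower in the same libraries, as given above. The other genes called lower were Slc6a12, a betaine and GABA transporter (-2.90, adjusted p = 3.03e-05), Impa2 (-1.35, adjusted p = 0.029) and Nfat5, a factor that induces osmolyte genes (-0.51, adjusted p = 0.000214).

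**Figure D3:**
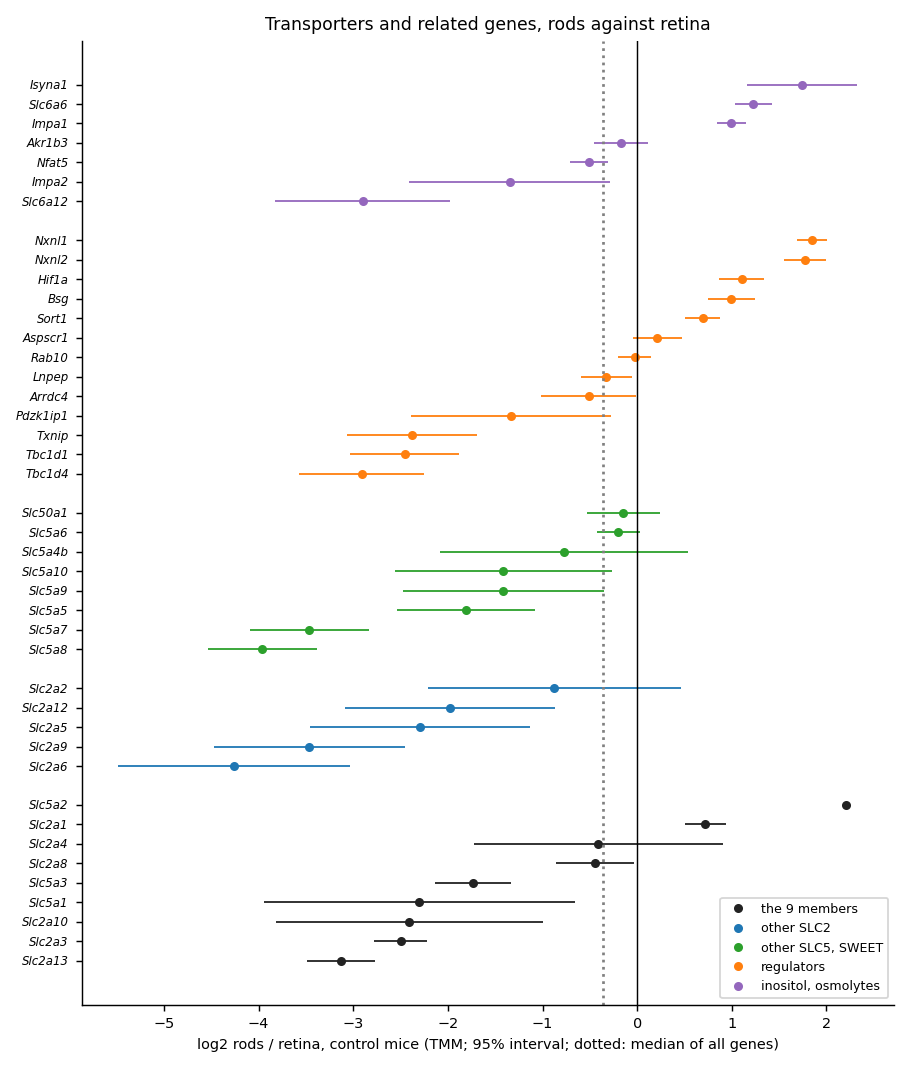
Log2 ratio of rods to retina in control mice, with its 95% interval, for the 9 members and 4 lists of related genes that could be tested (no interval is drawn for Slc5a2). Slc2a6 and Slc5a8 lie at -4.26 and -3.96, some genes below 0 had no reads in rods, and Nxnl1, Nxnl2, Hif1a, Bsg and Isyna1 lie between 0.99 and 1.85.

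The second comparison asked whether transporter mRNAs in rods differed between knockout mice and control mice, which carried Cre and 1 floxed Pkm2 allele. None of the 9 members was called (0 of 9, where 0.0194% of 20658 genes were called), and 0 of 9 had an unadjusted p under 0.05, where 986 of 20658 genes had. edgeR and DESeq2 on the recovered reads also called 0 of the 9. The control and knockout libraries overlapped for all 9, where they were apart for 9.89% of all genes. Slc2a1 differed by 0.08 on the log2 scale (SE 0.103, adjusted p = 0.944), with a 95% interval from -0.15 to 0.30, or ratios of 0.904 to 1.23. Slc5a2 differed by 0.06 (SE 0.375, adjusted p = 0.985), with an interval from -0.75 to 0.88, so the fit leaves room for changes of up to 1.84-fold higher or to 0.596 of the control level.

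The largest differences in rods were those of the genes with the fewest reads, Slc5a1 (-0.90, adjusted p = 0.932, interval -2.57 to 0.77) and Slc2a10 (-0.78, adjusted p = 0.932, interval -2.41 to 0.85). Both passed the filter on low values through the control libraries. Slc2a3 differed by -0.30 (SE 0.170, unadjusted p = 0.1, adjusted p = 0.932, interval -0.67 to 0.07), with knockout libraries at 200.03, 206 and 219 TMM-scaled reads and control libraries at 209, 327 and 252. Most markers of inner retinal cells also had values below 0 in rods, namely 8 of 8 amacrine markers (median -0.58), 7 of 8 bipolar markers (median -0.46) and 7 of 8 Müller glia markers (median -0.38). Ganglion cell markers were below 0 in 8 of 8 (median -0.43) and horizontal cell markers in 3 of 5 (median -0.35, highest 1.05). Beyond the inner retinal neurons and glia, 7 of 8 cone (median -0.11) and 6 of 8 microglia markers (median -0.09) were below 0. So were 5 of 7 endothelial (median -0.48) and 6 of 9 pigment epithelium markers (median -0.16), against 1 of 10 rod markers (median 0.06). The median over all genes was 0.006. The summed Müller marker level was 494 to 593 CPM in knockout rods against 611 to 769 in control rods. An unadjusted p under 0.05 was found for 5 of the 8 amacrine, 5 of the 8 bipolar and 6 of the 8 Müller glia markers. The same held for 2 of the 8 ganglion, 2 of the 5 horizontal cell and 3 of the 7 endothelial markers, against 986 of 20658 genes. It held for 0 of the cone, microglia, pigment epithelium and rod markers. After adjustment 0 of these markers were called. Their part in the value of Slc2a3 was not tested. The other members lay between -0.24 and 0.14.

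In retina none of the 9 was called either, where 0.00391% of 25590 genes were. An unadjusted p under 0.05 was found for 0 of 9, and for 1069 of 25590 genes. Slc2a1 differed by 0.02 (SE 0.0892, adjusted p = 0.983), with an interval from -0.17 to 0.21, or ratios of 0.888 to 1.16. Slc2a3 had 1182, 1421 and 1321 TMM-scaled reads in knockout retina and 1452, 1515 and 1430 in control retina. Its knockout libraries were all below its control libraries, the 1 member of 9 without overlap, a share near the 9.29% of all genes that had none. The gap was narrow on the deposited values, with the highest knockout library at 1748.1 and the lowest control library at 1749.9. The log2 difference of Slc2a3 between genotypes by limma was -0.15 (SE 0.0842, unadjusted p = 0.0961, adjusted p = 0.947). Values below 0 in retina were also found for 8 of 8 bipolar (median -0.18) and 8 of 8 Müller glia markers (median -0.16). They were found for 6 of 8 amacrine (median -0.05), 6 of 8 ganglion (median -0.03) and 4 of 5 horizontal cell markers (median -0.03). Beyond the inner retinal neurons and glia, 8 of 8 cone (median -0.12) and 7 of 8 microglia markers (median -0.25) were below 0. So were 7 of 8 endothelial (median -0.13) and 5 of 9 pigment epithelium markers (median -0.06), against 1 of 10 rod markers (median 0.09). The part of these cells in the value of Slc2a3 was not tested. Of the 9 members 8 had values below 0 in retina, between -0.01 for Slc2a8 and -0.96 for Slc5a1, and the 95% interval of each included 0. The median over all 25590 genes was -0.004.

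The third comparison set the genotype effect in rods against that in retina. None of the 9 members was called, where 0% of 25458 genes were, although 1124 genes had an unadjusted p under 0.05 in limma and 1191 in edgeR, which also called 0. The members lay between -0.56 for Slc2a10 (95% interval -2.56 to 1.43) and 0.31 for Slc5a2 (-1.01 to 1.62). For Slc2a1 the difference of effects was 0.06 (SE 0.143, interval -0.24 to 0.37).

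**Figure D4:**
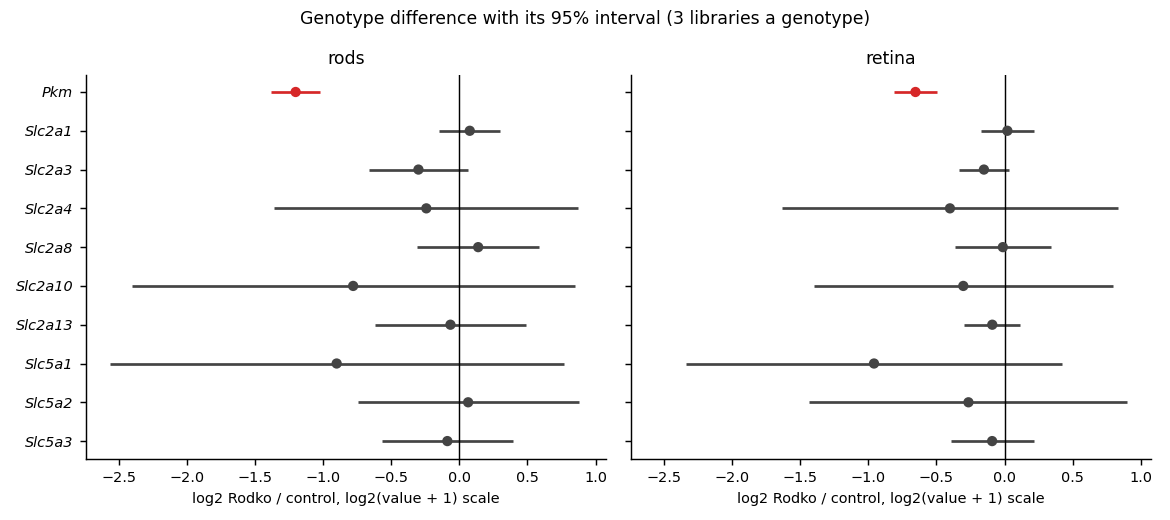
Log2 ratio of Pkm2 Rodko to control libraries with its 95% interval in rods (left) and retina (right) for the 9 members and Pkm (red), on the log2(deposited value + 1) scale. Pkm is at -1.20 in rods and -0.65 in retina, while every interval of the 9 members crosses 0.

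Genes of the 4 related lists were not called between genotypes in rods, in retina or in the comparison of the effects. In rods the smallest unadjusted p-values were those of Slc6a12 (1, 0 and 4 reads in knockout and 11, 19 and 11 in control rods, adjusted p = 0.697) and Slc2a6 (13, 6 and 9 in knockout and 2, 0 and 5 in control rods, adjusted p = 0.932). These were named after their values were seen. Nxnl1 differed by 0.01 in rods (adjusted p = 0.986), Bsg by -0.07 (adjusted p = 0.952) and Txnip by -0.61 (SE 0.400, adjusted p = 0.932).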

How the data were processed

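Rod-TRAP and total retinal polyA RNA were sequenced from 3 libraries in each of 4 groups, mapped by the sample labels. The submitters' processing notes name CASAVA 1.8.2, HISAT2, DESeq2, edgeR and GRCm39. The counter, the annotation and the use of strand are not given in the sources used here. The authors deposited a signal per gene, the reads divided by a size factor set within each fraction and rounded to 1 decimal. Of all positive values, 100% were within 0.1 read of a whole number of reads, and these recovered reads were used where counts were needed.

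Genotypes were compared within a fraction by limma 3.58.1 (R 4.3.3, variance trend) on log2(deposited value + 1), for genes with a mean of at least 1 in a genotype. Rods and retina, and the genotype effects, were compared in 1 limma fit of 12 libraries on log2(reads scaled by TMM + 1). P-values were adjusted by Benjamini-Hochberg over all genes at 0.05. edgeR 4.0.16, DESeq2 1.42.0, other scalings, filters and pseudocounts, a replicate block and leaving out each library were alternatives. The scripts were tested on simulated data. Same-numbered rod and retina libraries deviated together (r 0.135 to 0.337 in 6 of 6 pairs, -0.294 to -0.025 in 12 others). The labels do not state a pairing. Differently numbered control and knockout libraries also reached r 0.303, with 4 of 12 pairs over 0.1. The genes, lists and named genes (all 9 members, the 3 highest and lowest of each list, neighbours, the 5 nearest profiles) were chosen with earlier results of these data known. Exon lengths are from GENCODE vM21 (GRCm38), matched by identifier, and no gene coordinates are given. Intervals cover counting error only where stated.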

Additional observations from a re-analysis of the deposited data

How the results depend on the processing

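Between genotypes and in the comparison of effects, no member that was tested was called under any alternative run. A minimum of 10 reads in every library left Slc2a4, Slc2a10, Slc5a1 and Slc5a2 untested, so Slc2a10 and Slc5a1 had no call there. Slc2a10 was also untested between genotypes in rods without control rods replicate 2. Between rods and retina the call of Slc2a1 changed with the scaling, and that of Slc2a8 with the scaling, the filter, the block and 1 library. That of Slc5a1 changed with the pseudocount and with single libraries, as given with those genes. With 1 fit of all 12 libraries 17 genes were called in rods and with the replicate number as a block 8 (4 higher, 4 lower), against 4. Leaving out a library gave 2 to 6 in rods, with 2 without control replicate 1, control replicate 2 or knockout replicate 3. In retina the block called 0, a minimum of 10 reads 0, and leaving out a library 0 to 4, against 1, with 4 without control replicate 3, 2 without control replicate 2 and 0 without each of the others. Same-numbered control and knockout libraries did not deviate together (r -0.243 to 0.0759 in 6 pairs). With the minimum of 10 reads, 9526 genes were called between rods and retina in control and 9651 in knockout mice. Beside Slc2a8 in control mice, the block changed no call of a member.

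Signs turned among differences that did not pass. For the effects in rods minus retina these were Slc2a4 at -0.3515 and Slc2a13 at -0.0034 (edgeR), Slc2a13 at -0.0013 and Slc5a1 at 0.0492 (total reads), Slc5a1 at 0.0576 (deposited values), and Slc5a3 at -0.0004 (edgeR), -0.0223 (total reads) and -0.0022 (RLE). In retina, Slc2a8 between genotypes was 0.0094 (DESeq2) and 0.0093 (edgeR with RLE). The cause was not tested.

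Leaving out each library gave these ranges. In rods, Slc2a1 ran from -0.0161 to 0.1726, Slc2a4 from -0.6271 to 0.2, Slc2a8 from -0.0086 to 0.3519, Slc2a13 from -0.2546 to 0.0895, Slc5a2 from -0.1423 to 0.2074 and Slc5a3 from -0.245 to 0.1292. In retina, Slc2a1 ran from -0.0621 to 0.1201, Slc2a4 from -0.9027 to 0.327, Slc2a8 from -0.1426 to 0.1641, Slc2a10 from -0.8286 to 0.0496 and Slc5a3 from -0.2317 to 0.0817. Between rods and retina in knockout mice, Slc2a4 ran from -0.9917 to 0.2249. For the effects in rods minus retina, Slc2a1 ran from -0.0334 to 0.1418, Slc2a3 from -0.3075 to 0.0424, Slc2a4 from -0.5815 to 0.6343, Slc2a8 from -0.0118 to 0.3572, Slc2a10 from -1.239 to 0.0297, Slc2a13 from -0.1533 to 0.164, Slc5a1 from -0.8031 to 0.5025 and Slc5a3 from -0.1592 to 0.2336. Depth limits Slc2a4, Slc2a10, Slc5a1 and Slc5a2, which had at most 38 reads in a library.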
